A study of Mus musculus with 6 samples.

Results

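Murine erythroleukemia (MEL) cells are a virus-transformed line arrested at the proerythroblast stage, and they carry RNAs of genes best known from mast cells and basophils. Such genes are described here, 10 in number, among 23896 genes with a symbol in the transcript counts. They were listed by name, as histamine, granule, protease and receptor genes of mast cells and basophils. For each gene the RefSeq transcript with the highest mean count over all libraries was taken, and a gene with no more than 3 counts in every library was reported as not detected. By that limit 8 of the 10 genes were detected: Hdc, Srgn, Gzmb, Cpa3, Fcer1a, Ms4a2, Fcer1g and Cd200r3. Mcpt8 and Tpsb2 were not. The transcripts were thus chosen by their mean count and the detected genes by the 3-count limit, so the height of these counts is a description and carries no test.

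Poly(A) RNA of MEL cells grown in suspension was sequenced (mRNA-seq). Day 0 cells had received no dimethyl sulfoxide (DMSO) yet, and day 2 and day 4 cells had been in medium with 2% DMSO, which induces erythroid differentiation, for that time. Each of the 3 days has 2 biological replicates, giving 6 libraries. All of them come from 1 kind of cell line in culture, so no primary mast cell, basophil or erythroblast is among them, and no culture kept without DMSO to the later days was analysed here, so time in culture and DMSO cannot be told apart.

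Mast cells and basophils are granulocytes of allergic inflammation. Their granules store histamine, made from histidine by the enzyme Hdc, together with proteases, held on the proteoglycan serglycin (Srgn). Antigen that crosslinks IgE on the high-affinity IgE receptor, built of an alpha chain (Fcer1a), a beta chain (Ms4a2) and a dimer of gamma chains (Fcer1g), makes the cells release the granules. Erythroid cells, megakaryocytes, mast cells and basophils all use the GATA family of transcription factors, which bind DNA at short GATA motifs.

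GATA motifs stood upstream of 5 of the 9 genes that had an entry in the RefSeq promoter table (build GRCm38.p6). The 250 bases before each start were searched on both strands for AGATAA or AGATAG or TGATAA or TGATAG, a search chosen after the counts had been seen. Hdc, Cd200r3, Cpa3, Fcer1a and Ms4a2 held at least 1 match, and Gzmb, Fcer1g, Mcpt8 and Srgn held none. Of all genes with a promoter there, 29.7% held a match, and over all 32851 promoters 26.5%. The upstream stretches of Hdc, Cpa3 and Fcer1a are printed 5′ to 3′ on the strand of the gene to show where the matches lie, with that of Gzmb as a fallen gene without one, and capitals mark the matches.
Hdc (chr2:126618679-126618928, minus strand): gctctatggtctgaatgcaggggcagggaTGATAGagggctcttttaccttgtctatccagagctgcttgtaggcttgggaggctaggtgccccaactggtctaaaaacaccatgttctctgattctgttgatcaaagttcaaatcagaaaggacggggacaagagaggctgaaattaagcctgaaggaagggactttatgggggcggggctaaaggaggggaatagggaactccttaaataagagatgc
Cpa3 (chr3:20242210-20242431, minus strand): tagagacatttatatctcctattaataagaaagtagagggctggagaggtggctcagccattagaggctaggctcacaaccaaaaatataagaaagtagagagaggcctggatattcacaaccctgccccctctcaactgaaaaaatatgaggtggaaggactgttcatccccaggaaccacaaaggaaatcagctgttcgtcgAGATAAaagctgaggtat
Fcer1a (chr1:173227233-173227479, minus strand): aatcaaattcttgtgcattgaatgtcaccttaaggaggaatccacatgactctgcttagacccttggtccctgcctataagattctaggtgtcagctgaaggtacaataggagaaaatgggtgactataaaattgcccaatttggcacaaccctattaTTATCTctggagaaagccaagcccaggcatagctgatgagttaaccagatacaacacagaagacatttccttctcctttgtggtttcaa
Gzmb (chr14:56262335-56262584, minus strand): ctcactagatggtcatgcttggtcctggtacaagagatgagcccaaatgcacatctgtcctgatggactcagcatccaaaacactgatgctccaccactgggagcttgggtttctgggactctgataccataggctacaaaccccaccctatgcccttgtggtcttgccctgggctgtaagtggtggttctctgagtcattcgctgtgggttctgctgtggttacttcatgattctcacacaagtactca
The Cpa3 match, AGATAA, lay at bases -46 to -41 from the start, and the Hdc match, TGATAG, at bases -221 to -216. In Fcer1a the match was on the opposite strand and read TTATCT, at bases -92 to -87. The E-box letters CANNTG were in 8 of the 9 windows, in all but that of Ms4a2, beside 69.3% of all genes. The letters CATGTG or CACGTG, an E-box form bound by MITF and counted within CANNTG too, were in the Fcer1a window alone of the 9, beside 19.8% of genes. The ETS letters GGAAGT were in that of Srgn alone, beside 22.2%. These matches describe letters, and binding was not measured here.

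Libraries held 35294930 to 53899476 counts on transcripts, and the correlation of log counts between replicates was 0.991 to 0.996. Counts are also given as CPM, the usual depth-scaled unit, here with library sizes scaled by the TMM method of edgeR, in which 3 counts stand at 0.0604 to 0.0831 CPM. Between days, edgeR's quasi-likelihood test with Benjamini-Hochberg adjustment over 18351 transcripts was used, and a transcript was called at an adjusted p below 0.05. The erythroid label held: the summed level of 9 erythroid marker genes, among them Hba-a1 of alpha globin, went from 898 and 957 CPM at day 0 to 17469 and 19614 CPM at day 4. Most of the day 4 sum was the globin genes Hba-a1 and Hbb-bs, at means of 10626 and 5035 CPM. From day 0 to day 4, 8 were called higher, of which Slc4a1 passed the count filter through the later days alone. Klf1 was called lower (log2 fold change -0.54 ± 0.18, edgeR adjusted p = 0.0188). In such bulk RNA, fewer cells that express a gene and less of its RNA per cell cannot be told apart.

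Of the 8 detected genes, 6 lost nearly all of their RNA by day 2: Hdc, Gzmb, Cd200r3, Cpa3, Fcer1a and Ms4a2. Their summed level was 100 and 92.5 CPM in the day 0 libraries, 2.08 and 1.42 CPM at day 2, and 0.388 and 0.221 CPM at day 4. This sum leaves out Srgn and Fcer1g, which did not drop so far. Over all 10 genes the sum was 189 and 184 CPM at day 0, 59.6 and 52.2 CPM at day 2, and 56.2 and 57.3 CPM at day 4. Srgn fell by a smaller factor, and Fcer1g, which many blood cells share, was the single gene of the list that was higher at day 4. From day 0 to day 2, 7 of the 8 tested genes were called lower and 0 higher, where 31.6% of all tested transcripts were called lower and 31.9% higher. Over the 8 genes the median log2 change was -5.03, beside 0.01 over the 12381 genes tested. From day 2 to day 4, 4 were called lower and 1 higher (background 16.4% lower and 14.6% higher), with a median of -2.21 beside 0.00. Over the whole course, from day 0 to day 4, 7 were called lower and 1 higher (background 36.1% lower and 36.2% higher), with a median of -7.51 beside -0.02. Cd200r3 and Ms4a2 had 0 counts at day 4, where a fitted fold depends on the prior count, and with both set at their bound against 3 counts a library the medians were -0.89 for day 2 to day 4 and -6.80 for day 0 to day 4. Scaling by total counts in place of TMM moved the split over all transcripts to 7593 higher and 4187 lower at the first step and to 1880 higher and 3787 lower at the second, and left 7 of the 8 genes called lower and 0 higher at the first. Cpa3 and Fcer1a passed the 3-count limit through day 0 alone, so a lower later level was fixed by how they passed and their calls are no support, and no p is given for them. Gzmb, Cd200r3 and Ms4a2, at 15 and 10, 7 and 2, and 7 and 7 counts at day 2, passed the count filter of the test through day 0 alone. Their fall from day 0 was thus fixed in the same way. Their calls against day 0 are no support either, and no p against day 0 is given for them. The medians against day 0 include Gzmb, Cd200r3, Cpa3, Fcer1a and Ms4a2, so they are no support for a direction. Hdc, Srgn and Fcer1g, whose direction was not fixed so, had log2 fold changes of -5.66, -0.98 and 0.04 from day 0 to day 2. The genes were listed with earlier results of these data known, so the counts of genes called are not independent evidence of a direction.

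**Figure D1:**
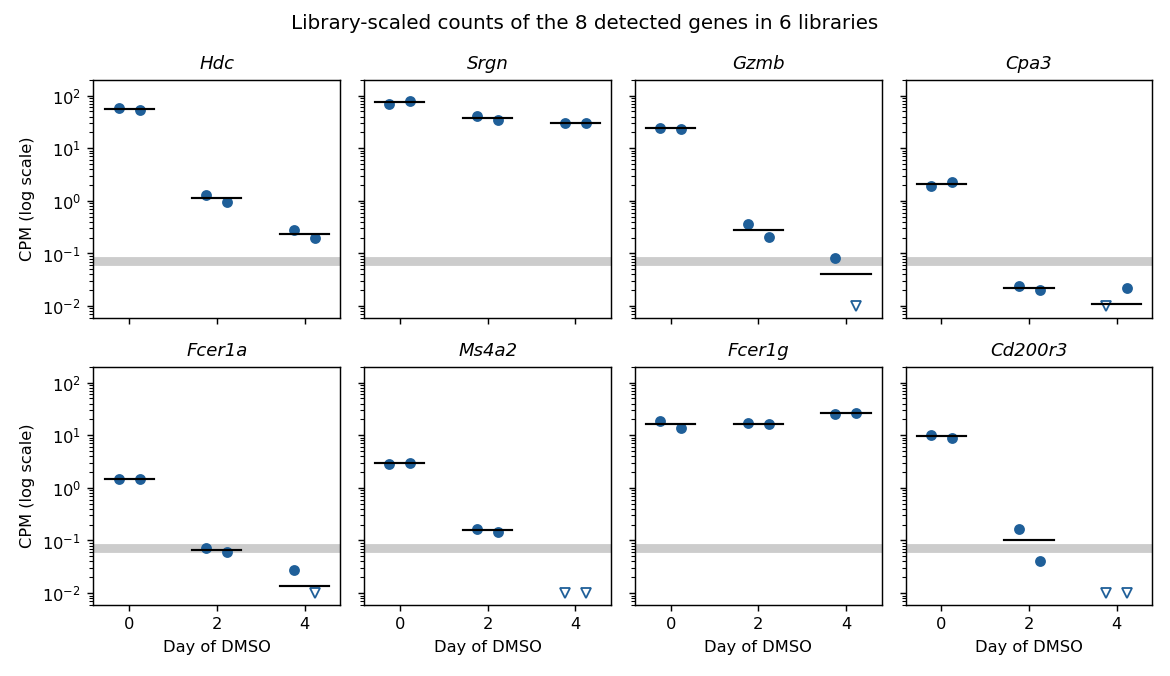
Level of each detected gene in each library, in CPM on a log scale, against the day of DMSO. Points are libraries, black lines are means of the 2 libraries of a day, the grey band is the level of 3 counts in the 6 libraries (0.0604 to 0.0831 CPM), and open triangles drawn at the bottom are libraries with 0 counts. By day 2 Cpa3 and Fcer1a are in or below the band and the other 4 of the 6 genes remain above it in mean, with Hdc at 1.12 CPM, while Srgn steps down less, and Fcer1g is highest at day 4.

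Hdc, histidine decarboxylase, the enzyme that makes histamine, had the highest day 0 level of the 6 genes that dropped. Its counts were 2410 and 2679 at day 0, 54 and 47 at day 2, and 10 and 9 at day 4. The 3 days did not overlap, and within each day the replicates lay close together. In CPM the means were 56.5 ± 3.61 (SD, n = 2), 1.12 ± 0.238 and 0.238 ± 0.0553. Day 2 held 1.97% of the day 0 level, with a 95% counting interval of 1.61% to 2.40%, which is 50.6-fold lower. This interval and the others of its kind are exact, come from the summed counts of 2 days and cover counting error only. By day 4, 0.415% was left (0.250% to 0.649%), 241-fold lower than day 0. Both steps passed the edgeR test, with log2 fold changes of -5.66 ± 0.18 (SE, adjusted p = 2.78e-08) and -2.24 ± 0.30 (adjusted p = 0.000561). The second step was smaller than the first by 3.42 ± 0.48 on the log2 scale (adjusted p = 0.000683). Of the 8 genes, 2 differed between the steps in this way, Hdc and Srgn, beside 30.0% of all tested transcripts. Hdc lies at chr2:126593659-126624025, and it has 1 transcript in the files.

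Srgn, serglycin, the proteoglycan core on which granule proteases and histamine are packed, behaved otherwise. It had 2880 and 3839 counts at day 0, 1690 and 1705 at day 2, and 1103 and 1370 at day 4. In CPM the libraries stood at 70.6 and 77.3, then 40.5 and 34.7, then 30.6 and 30.3, so that on this scale the 3 days did not overlap. Day 2 held 50.3% of day 0 (48.2% to 52.4%) and day 4 40.9% (39.1% to 42.9%). The first step was called (log2 fold change -0.98 ± 0.12, edgeR adjusted p = 3.31e-05), as was day 4 against day 0 (-1.28 ± 0.12, adjusted p = 2.51e-06). The second step, -0.30 ± 0.12, was not (adjusted p = 0.0679), but it was called with total counts in place of TMM (adjusted p = 0.0273), in a fit of the 2 days alone (0.0168) and without day 0 replicate 1 (0.0159) or replicate 2 (0.0164). The difference between its steps, 0.67 ± 0.20 (adjusted p = 0.0288), was lost with total counts (adjusted p = 0.154) and without any 1 of the day 2 or day 4 libraries (0.0707 to 0.328). Srgn is spread over chr10:62493833-62527445.

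Of the 4 granule proteases in the list, Gzmb and Cpa3 were detected, and Mcpt8 and Tpsb2 were not. Gzmb, granzyme B, a serine protease of cytotoxic lymphocyte granules that mast cells and basophils can make as well, had 1001 and 1133 counts at day 0, 15 and 10 at day 2, and 3 and 0 at day 4. Every day 0 library was far above every later one, and day 4 was at the detection limit. The means were 23.7 ± 1.21, 0.281 ± 0.110 and 0.0416 ± 0.0588 CPM (SD, n = 2). At day 2, 1.17% of day 0 was left (0.753% to 1.73%), 85.8-fold lower (edgeR log2 fold change -6.41 ± 0.29). Gzmb passed the count filter through day 0 alone, so the direction of this fall was fixed and no p is given for it. Day 4, with 3 counts in all, held 0.156% (0.0322% to 0.457%). Between day 2 and day 4 the ratio was 7.46-fold lower with an interval of 2.28 to 38.6. That step was called (adjusted p = 0.0174), but not without day 2 replicate 1 (adjusted p = 0.135) or day 4 replicate 2 (0.13). Gzmb lies at chr14:56258836-56262334.

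Cpa3, carboxypeptidase A3, the metalloprotease of mast cell granules, began much lower. Its counts were 77 and 114 at day 0, 1 and 1 at day 2, and 0 and 1 at day 4. It was detected at day 0 alone, with 2.09 ± 0.289 CPM (SD, n = 2). The 2 counts of day 2 gave 1.04% of day 0, with a wide interval of 0.125% to 3.82%, and the edgeR log2 fold change was -6.40 ± 0.49. Day 2 and day 4 were both at the detection limit, so no fold is given between them. Cpa3 lies at chr3:20215616-20242209.

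Mcpt8, the basophil protease and a common basophil marker, had 0 and 2 counts at day 0 and 0 in the other 4 libraries. Tpsb2, tryptase beta 2 of mast cells, had 0 counts in all 6 libraries, which allows up to 3 counts a library. Neither was tested, and their levels were not detectable at this depth. Mcpt8 lies at chr14:56082163-56085499, near Gzmb in the same protease cluster of chromosome 14, and Tpsb2 at chr17:25366308-25368096.

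Among 21 other protease genes of mast cell, basophil and lymphocyte granules, 12 were at or below 3 counts in every library, among them Tpsab1, Prss34, Gzma and Ctsg. Of the 8 tested, 5 fell and 0 rose from day 0 to day 4, beside 36.1% of all tested transcripts lower and 36.2% higher. The count called was 3 with DESeq2 and 3 without day 4 replicate 2. Mcpt1, Gzmm and Cma1 were detected and not called. Mcpt2, mast cell protease 2, was named after its values were seen. It had 1381 and 1691 counts at day 0, 560 and 569 at day 2, and 631 and 460 at day 4. Its mean went from 34 CPM at day 0 to 13.8 CPM at day 4 (log2 fold change -1.30 ± 0.21, edgeR adjusted p = 0.000162), a smaller fall than that of Gzmb or Cpa3. Dpp4, a membrane dipeptidase, was both the one with the highest level and the one with the largest fall, at 3245 and 3629 counts at day 0 and 421 and 645 at day 4 (log2 fold change -2.56 ± 0.15, edgeR adjusted p = 1.28e-07). Prf1, perforin, the pore former that delivers granzyme B in lymphocytes, had 4 and 4 counts at day 0 and no more than 1 in any later library. It was picked out after its values were seen. Of 16 cytotoxic lymphocyte marker genes, 8 were at 0 in all libraries, including Ncr1, Klrb1c, Cd8a and Gzma, and the list summed to 0.221 and 0.302 CPM at day 0, where Gzmb was at 22.8 to 24.5 CPM. That sum was 1.32 and 1.42 CPM at day 2, with Cd3g at 48 and 63 counts, and 0.887 and 0.994 CPM at day 4, with Cd3g at 16 and 26 counts and Cd3d at 13 and 15.

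The 3 chains of the IgE receptor did not move together. The alpha chain gene Fcer1a, which binds IgE, had 60 and 72 counts at day 0, 3 and 3 at day 2, and 1 and 0 at day 4. All day 2 and day 4 libraries were at or below the limit of 3 counts. Day 2 held 4.52% of day 0 (1.63% to 10.1%), and the edgeR log2 fold change was -4.41 ± 0.43. Fcer1a lies at chr1:173221269-173227232.

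Ms4a2, the beta chain that amplifies the receptor signal, had 114 and 150 counts, then 7 and 7, then 0 and 0. Each day stood apart from the next, and the last was at 0. Day 2 held 5.28% of day 0 (2.85% to 9.01%), 19-fold lower (edgeR log2 fold change -4.21 ± 0.32). Ms4a2 passed the count filter through day 0 alone, so the direction of this fall was fixed and no p is given for it. Against 3 counts a library, day 4 was at least 39.6-fold lower than day 0 and at least 2.09-fold lower than day 2, a step that was called (adjusted p = 0.00579). Together the alpha and beta chains summed to 4.26 and 4.47 CPM at day 0 and to 0.0277 and 0 CPM at day 4. Ms4a2 lies at chr19:11615517-11623790.

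Fcer1g, the gamma chain, which carries the signalling motif and also serves other Fc receptors, stayed high. Its counts were 763 and 677 at day 0, 710 and 791 at day 2, and 913 and 1212 at day 4. In CPM the day 0 libraries, at 18.7 and 13.6, lay on both sides of the day 2 libraries, at 17 and 16.1, and the day 4 libraries, at 25.3 and 26.8, lay above all of them. Day 2 was not called different from day 0 (log2 fold change 0.04 ± 0.15, edgeR adjusted p = 0.849), and its counting interval ran from 96.4% to 112% of day 0. Day 4 was at 164% of day 0 (153% to 176%), with a log2 fold change of 0.69 ± 0.15 (adjusted p = 0.00169). The step from day 2 to day 4, 0.65 ± 0.15 (adjusted p = 0.00852), was lost without day 2 replicate 1 (adjusted p = 0.0789), day 2 replicate 2 (0.0872) or day 4 replicate 2 (0.0654). Fcer1g lies at chr1:171229572-171234349.

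Per kilobase of transcript, Fcer1g stood 18.8 and 13.9 times above Fcer1a and 10 and 6.76 times above Ms4a2 in the day 0 libraries. Ms4a2 in turn was 1.88 and 2.06 times Fcer1a. At day 2 the ratio of Fcer1g to Ms4a2 was 152 and 169. The messages of the chains were thus unequal before DMSO, and the gap widened at day 2.

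Cd200r3, an activating member of the CD200 receptor family found on basophils and mast cells, was listed with 4 transcripts. The one with the highest mean count had 416 and 444 counts at day 0, 7 and 2 at day 2, and 0 and 0 at day 4. Day 2 held 1.04% of day 0 (0.474% to 1.99%), 96-fold lower (edgeR log2 fold change -6.55 ± 0.36). Cd200r3 passed the count filter through day 0 alone, so the direction of this fall was fixed and no p is given for it. Day 4 was at least 129-fold lower than day 0 and at least 1.34-fold lower than day 2. The second step was called (adjusted p = 0.033), but not without day 2 replicate 1 (adjusted p = 0.191), day 4 replicate 1 (0.0812) or day 4 replicate 2 (0.14). The other transcripts gave day 0 counts of 367 to 453 and later counts of no more than 9, so the choice of transcript hardly mattered. Cd200r3 lies at chr16:44943596-45058365.

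**Figure D2:**
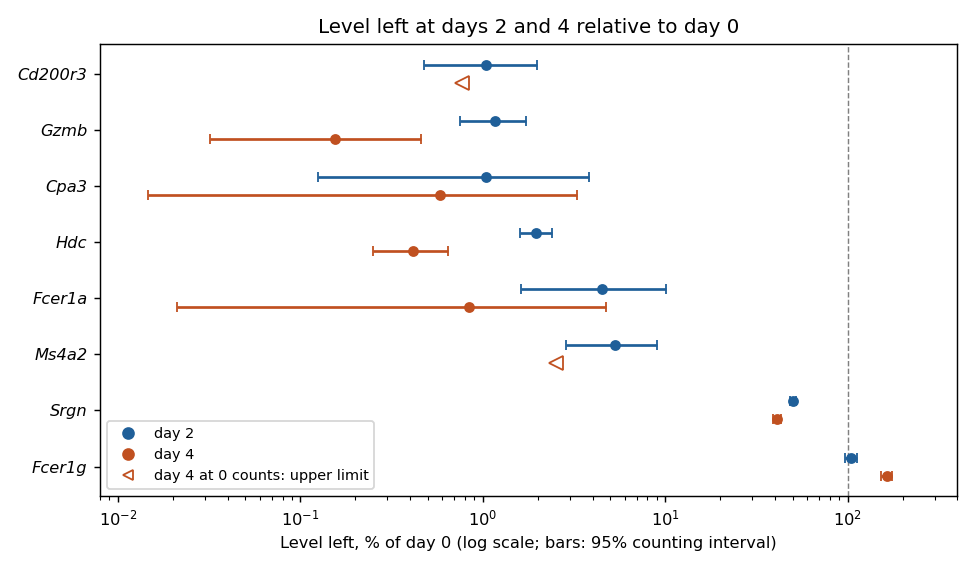
Level left at day 2 (blue) and day 4 (orange) as a percentage of day 0, on a log scale, for the 8 detected genes. Bars are 95% counting intervals from summed counts, open triangles are upper limits where day 4 had 0 counts, and the dashed line is the day 0 level. The other 6 genes are at 5.28% or less at day 2, while Srgn keeps 50.3% and Fcer1g 104%.

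Relatives of Cd200r3 in the same family, named after their values were seen, were present at day 0 as well. Cd200r4 had 1067 and 1261 counts at day 0, 20 and 21 at day 2, and 11 and 13 at day 4, with 1.75% left at day 2 (1.25% to 2.38%). Cd200r2 had 162 and 177 counts, then 5 and 2, then 1 and 2. Cd200r1, the inhibitory receptor, had 442 and 469, then 97 and 110, then 71 and 91, so that 22.6% was left at day 2 (19.3% to 26.3%), above the intervals of Cd200r3 and Cd200r4. These genes resemble each other in sequence, and how shared reads were counted is not given in the sources used here. Tyrobp, the adaptor DAP12 through which activating CD200 receptors signal, had 290 and 250 counts at day 0, 12 and 11 at day 2, and 1 and 1 at day 4 (first step -4.56 ± 0.29, edgeR adjusted p = 5.65e-07). Fcer1g, an adaptor of the same type, was not called lower in any comparison between days.

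Ordered by level per kilobase at day 0, Srgn was first, at 78.9 ± 5.09 CPM per kb (SD, n = 2). Fcer1g (24 ± 5.31) and Hdc (23.6 ± 1.51) followed and lay within each other's spread. Gzmb (16.5 ± 0.842), Cd200r3 (6.8 ± 0.629) and Ms4a2 (2.88 ± 0.159) came next, each apart from its neighbours. Fcer1a (1.46 ± 0.0143) and Cpa3 (1.44 ± 0.200) overlapped at the end. At day 4 the order was led by Fcer1g (38.6 ± 1.56) and Srgn (32.4 ± 0.217), and Hdc, the only one of the other 6 above 3 counts a library, was at 0.0995 ± 0.0231. Srgn stood 3.05 and 3.65 times above Hdc at day 0 and 281 and 388 times above it at day 4. The length of each transcript was taken from GENCODE.

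Among 8482 genes with a mean of at least 10 CPM, those nearest to 3 of the genes in pattern were sought by the root mean square distance between the 6 centred log2(CPM + 1) values. For Hdc the nearest were Siglecf (0.21) and Anxa2 (0.37). Siglecf, a sialic acid receptor of eosinophils, had 3759 and 3820 counts at day 0, 160 and 126 at day 2, and 62 and 51 at day 4. For Srgn they were Septin6 (0.02), Rbm3 (0.06) and Zcchc10 (0.06), and for Fcer1g they were Hnrnph2, Cdip1 and Dctn3 (0.07 each). None of these likenesses was tested.

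The wider machinery of these cells was read from 8 lists of related genes, each taken from day 0 to day 4, where 36.1% of all tested transcripts were called lower and 36.2% higher. Fc receptors and partners of DAP12 all fell where tested, 11 of 20 listed, with a median log2 fold change of -5.27, beside -0.02 over all genes tested, and the same median with 2 genes at 0 counts set at their bound. Among them Pilrb1, Clec4d, Clec4e and Cd200r2 passed the count filter of the test through day 0 alone, so their fall was fixed by how they passed and is no support. Fcgr2b, the inhibitory receptor for IgG, had the highest level among those called (-2.25 ± 0.19, edgeR adjusted p = 1.52e-06), and Pilrb1, a paired receptor that signals through DAP12, had the lowest fitted fold change, a value that depends on the prior count, and went from 241 and 250 counts at day 0 to 2 and 2 at day 2 and 0 and 0 at day 4. Of 7 tested cytokine and chemokine genes out of 19 listed, 5 fell and 0 rose. The fall of Ccl9, Tnf and Csf2 was likewise fixed, since they passed the filter through day 0 alone. Ccl9 went from 144 and 219 counts to 1 in each later library, and Tgfb1 fell by 0.61 on the log2 scale (SE 0.12, adjusted p = 0.000942). Il13, Il6, Il5 and Ccl3 were among the 11 at or below 3 counts everywhere.

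Signalling genes downstream of the IgE receptor were mixed, with 13 lower and 4 higher of 21 tested and a median of -0.61. Btk, a tyrosine kinase and the gene with the highest level called in the list, fell by 1.78 on the log2 scale (SE 0.13, edgeR adjusted p = 6.53e-07). Lcp2, the adaptor SLP-76, fell most (-4.33 ± 0.16, adjusted p = 9.69e-09), and Orai1, the calcium channel opened by store depletion, rose most (1.76 ± 0.16, adjusted p = 2.11e-06). Genes of granule storage and amine handling were called higher in 9 and lower in 8 of 22 tested, shares close to those over all transcripts (36.2% and 36.1%), with a median of 0.10. Lamp2, a lysosome membrane protein, had the highest level among those called (0.29 ± 0.11, adjusted p = 0.0317). Xylt2, which starts the sugar chains of proteoglycans such as serglycin, rose most (1.07 ± 0.17, adjusted p = 0.000153), and Rab27b, which guides granules to the membrane, fell most (-1.96 ± 0.23, adjusted p = 1.59e-05). Slc18a2, the transporter that loads histamine into granules, was named after its values were seen: it had 597 and 636 counts at day 0, 877 and 1142 at day 2, and 618 and 409 at day 4. Its level at day 4 was not called different from day 0 (-0.08 ± 0.23, adjusted p = 0.782), whereas that of Hdc, which makes the amine, was 0.415% of day 0.

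Of 7 tested eicosanoid genes, 4 fell and 2 rose. Alox5, 5-lipoxygenase, which starts leukotriene synthesis, was the one with the highest level and rose by a log2 fold change of 0.44 ± 0.12 (edgeR adjusted p = 0.00567). Ltc4s, leukotriene C4 synthase, rose from 12 and 30 counts to 112 and 128 (2.68 ± 0.31, adjusted p = 1.41e-05), and Tbxas1, thromboxane synthase, fell most (-1.93 ± 0.14, adjusted p = 5.73e-07). All 10 tested cytokine receptor genes were called, 5 in each direction. Kit and Il5ra, which fell, passed the count filter through day 0 alone, so the direction of their change was fixed. Kit, the stem cell factor receptor on which mast cells depend, had 23 and 24 counts at day 0, 2 and 2 at day 2, and 0 and 0 at day 4. Csf2rb, the shared beta chain of the receptors for IL-3, IL-5 and GM-CSF, rose from 15423 and 19099 counts to 51877 and 59374 (1.85 ± 0.13, adjusted p = 4.7e-07), and its near copy Csf2rb2, with which it may share reads, had a log2 fold change of 3.76 ± 0.15 (adjusted p = 1.24e-08). Il1rl1, the IL-33 receptor of mast cells and basophils, had 2004 and 3299 counts at day 0 and 65 and 52 at day 4 (-5.31 ± 0.23, adjusted p = 2.14e-08).

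**Figure D3:**
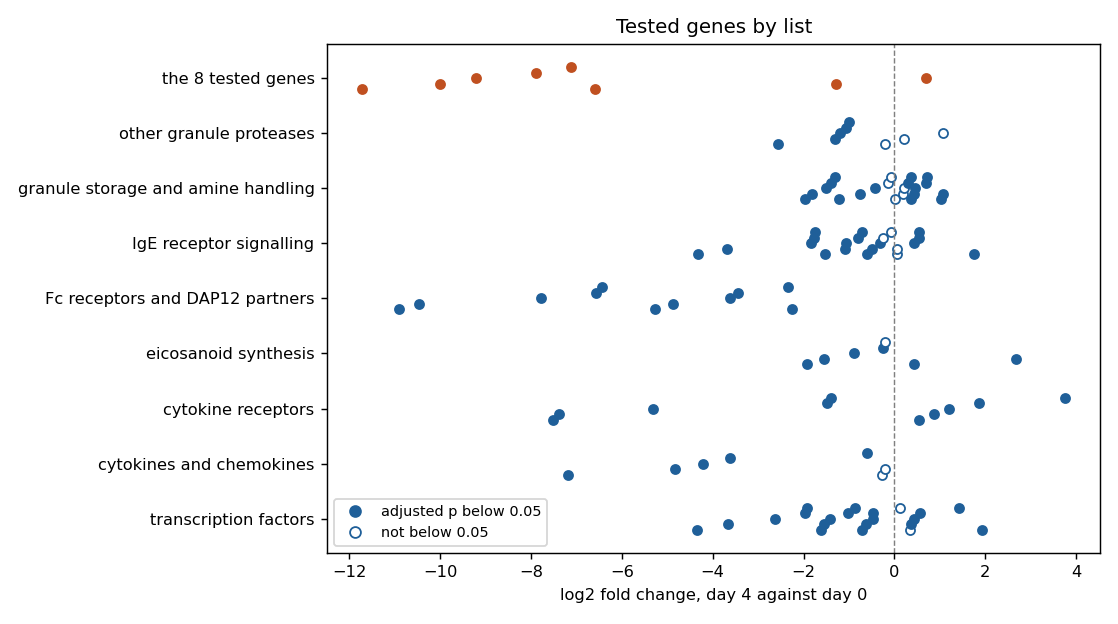
Log2 fold change from day 0 to day 4 of every tested gene in the list described here (orange) and in 8 lists of related genes (blue). Each point is a gene, filled where the edgeR adjusted p was below 0.05, points are spread vertically only to keep them apart, and values of genes at 0 counts at day 4 (Cd200r3, Ms4a2, Pilrb1 and Kit among them) depend on the prior count. The 11 Fc receptor and DAP12 genes all lie below 0, and granule storage genes lie on both sides of it. Of the former, Pilrb1, Clec4d, Clec4e and Cd200r2 passed the count filter through day 0 alone. So did Gzmb, Cd200r3, Cpa3, Fcer1a and Ms4a2 among the orange points.

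Transcription factors of mast cells and basophils were lower in 14 and higher in 5 of 21 tested, with a median of -0.71, beside 36.1% lower and 36.2% higher over all transcripts. Zfpm1, the GATA cofactor FOG-1, had the highest level called and rose by 1.41 ± 0.11 (edgeR adjusted p = 1.14e-06), Tal1 rose most (1.92 ± 0.14, adjusted p = 4.37e-07), and Id1, an inhibitor of E-box factors, fell most (-4.34 ± 0.34, adjusted p = 9.13e-07). The next 4 were named after their values were seen. Gata1 had 8223 and 10070 counts at day 0 and 9422 and 11906 at day 4 (0.37 ± 0.11, adjusted p = 0.00772). Gata2 had 278 and 309 counts at day 0, 174 and 200 at day 2, and 250 and 333 at day 4, and fell at the first step by 0.66 on the log2 scale (SE 0.15, adjusted p = 0.00305), rose at the second (0.80 ± 0.15, adjusted p = 0.00356) and was not called at day 4 against day 0 (0.13 ± 0.15, adjusted p = 0.434). Mitf rose at the first step (0.43 ± 0.15, adjusted p = 0.0255) and was not called at day 4 against day 0 (0.34 ± 0.15, adjusted p = 0.0608). Spi1, which encodes PU.1 and is activated by virus insertion in many such lines, fell at the first step (-3.20 ± 0.20, adjusted p = 4.3e-07) and was at -3.66 ± 0.20 at day 4 against day 0 (adjusted p = 9.11e-08). None of these 4 was at or below 3 counts at any day, unlike Cd200r3 and Ms4a2.

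Marker lists of whole cell types were summed beside these values. The mast cell list of 13 genes, which shares genes with the list described here, went from 71.3 and 87.2 CPM at day 0 to 19.7 and 10.7 CPM at day 4, with 5 genes at 0 in every library, the tryptases Tpsb2 and Tpsab1 and Mrgprb1, Mrgprb2 and Hpgds. Most of that sum was Il1rl1 at day 0 (57.8 CPM, mean) and Slc18a2 at day 4 (13.1 CPM, mean). The basophil list of 10 genes went from 43.8 and 47.9 CPM to 17.4 and 20.2 CPM, with Prss34 and Itga2 at 0 throughout. Its day 4 sum was mostly the transcription factor genes Cebpa (11.4 CPM, mean) and Gata2 (7.14 CPM, mean), while Cd200r3 and Ms4a2 were at 0 counts. The neutrophil and monocyte list of 16 genes was at 19.6 and 21.8 CPM at day 0 and 12.2 and 13.4 CPM at day 4, with Ngp, S100a8 and S100a9 at 0, and the megakaryocyte list of 12 genes went from 278 and 282 CPM to 565 and 638 CPM. Most of the latter sum was Itga2b (218 CPM at day 0 and 569 CPM at day 4, means), while 5 of the 9 tested genes of that list fell and 4 rose, with a median log2 fold change of -0.72, and Pf4 fell from a mean of 50 to 9.56 CPM. Ppbp, among those that fell, passed the count filter through day 0 alone. The part of a small share of differentiated mast cells or basophils in these levels was not tested. Of the mast cell list 8 of 13 genes, and of the basophil list 7 of 10, were above 3 counts in at least 1 library, among them Mcpt4, a mast cell chymase, with 24 and 34 counts at day 0, and Cpa3 and Cd200r3.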

How the data were processed

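The authors extracted total RNA, made poly(A)-selected strand-specific libraries, and deposited, for each library, the raw count of reads on every RefSeq transcript, not normalized or pooled. The submitters' processing notes name cutadapt, TopHat, HTSeq and mm10. Alignment allowed for strand and for reads with several hits, whereas strand and shared reads at the counting step and the annotation release are not given in the sources used here. Reads on no feature (50.5% to 58.4%) were left out. Symbols came from RefSeq (GRCm38.p6) for 32199 of 32654 transcripts and from GENCODE for 187.

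The members and lists were chosen with earlier results of these data known. All 6 libraries entered 1 edgeR 4.0.16 fit (R 4.3.3; filterByExpr, TMM, a mean per day), and each step, day 4 against day 0 and the difference between steps were tested at an adjusted p below 0.05. DESeq2 1.42.0, other filters and scalings, a replicate block and leaving out each library were alternatives. The edgeR and DESeq2 steps and the motif search were tested on simulated data. From each list, the called genes with the highest mean CPM, the largest rise and the largest fall were named, and 1 gene that the rule on nearest patterns names is not reported here. A fold against a day at 0 is a bound against 3 counts a library. The labels number the replicates and the authors call them biological, without further detail. The p-values rest on the spread between replicates, estimated over all 3 days together and shared in part across transcripts.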

Additional observations from a re-analysis of the deposited data

Results flagged for a closer look

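The first step (day 0 to day 2) was compared with the second step (day 2 to day 4) by the edgeR test of the difference itself. It called 2 of the 8 tested genes. Over all tested transcripts 30.0% were called, a share close to that, so the count is no result about these genes. For Hdc the second step minus the first was 3.42 on the log2 scale, and the call held under every alternative tried (adjusted p at most 0.0141). For Srgn the difference was 0.67, and it was lost without any 1 of the day 2 or day 4 libraries and with total counts. The steps share the day 2 libraries.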

How the results depend on the processing

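The counts of genes called kept within 1.5 times of their value in 48 of 55 alternatives, and in the other 7 they moved. From day 2 to day 4 the count of 5 became 3 when the 2 days were fitted alone, and ran from 2 to 6 when 1 library was left out. For the difference between steps, the count of 2 became 1 with total counts, and ran from 1 to 3 when 1 library was left out. Of the genes' log2 fold changes, 408 of 435 kept direction and call, 13 lost and 8 gained it, and 6 turned, each without 1 library. With 1 library left out, Fcer1g at the first step ran from -0.18 to 0.28, Cpa3 at the second from -3.11 to 0.00, and the difference between steps from -0.25 to 4.71 for Gzmb, from -0.06 to 3.83 for Cd200r3 and from -0.23 to 3.23 for Fcer1a. For Gzmb that difference, 3.60 (adjusted p = 0.0728), was called by DESeq2 (0.00497), with no filter (0.0201) and without day 4 replicate 2 (0.0174), and for Fcer1g without day 0 replicate 2 (0.84, adjusted p = 0.00362). Causes were not tested. Whether same-numbered replicates belong together is not given in the sources used here. The correlation of replicate differences between days was 0.032 to 0.079 over 18351 transcripts, and with a replicate block 7, 5, 8 and 2 genes were called, as without it. Total counts in place of TMM moved the median log2 fold change over all transcripts at the first step from 0.02 to 0.22. Depth limits Cpa3, Fcer1a, Gzmb, Cd200r3 and Ms4a2 at day 4, where fitted folds depend on the prior count.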
